A study of Mus musculus with 18 samples.

Results

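The genes Gja1, Gja4, Gja5, Gjc1, Gjb2 and Panx1 were followed in the ovaries of young mice whose mothers had been fed a methionine-rich or a control diet. They are 5 connexins and 1 pannexin, chosen by gene symbol as junction and channel genes connected with the ovarian follicle, and all 6 were found among the 30172 genes of the deposited tables. In the data the description held only in part: Gja5 and Gjb2 lay below 1 FPKM (a fragment count divided by gene length and by the size of the library) in all 18 libraries, and Panx1 forms single-membrane channels and not gap junctions.

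The libraries were made from whole ovaries of wild-type C57BL/6J F1 females at postnatal day 3, 7 or 21 (Pd3, Pd7, Pd21). F1-HHcy pups came from dams on a high-methionine diet (3% methionine), which raises homocysteine in the blood (hyperhomocysteinemia, HHcy), and F1-Control pups from dams on a diet with 0.67% methionine. Feeding began when the dams were 3 weeks old, ran for 4 or 6 weeks up to mating, on which the sources differ, and went on through gestation and lactation. The sires ate normal chow and the pups were not treated themselves. Each of the 6 groups of diet and day held 3 libraries, with Pd3 and Pd7 in batch 1 and Pd21 alone in batch 2, and the number of pups behind a library was not given in the sources used here. The diet was given to the dams, and the sources also did not say which libraries shared a dam or litter. The p-values therefore measure the spread between libraries, part of which may be technical. They treat the libraries of a group as independent, and would be too small where libraries share a litter.

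Connexins assemble as hexamers in the cell membrane and dock with hexamers of a neighbouring cell, which opens a channel for ions, cyclic nucleotides, amino acids and other small metabolites. In the ovarian follicle, connexin 43, the product of Gja1, couples the granulosa cells with each other, and connexin 37, the product of Gja4, joins the oocyte to the granulosa cells around it. Mouse follicles that lack connexin 37 do not reach ovulation, and those that lack connexin 43 arrest at an early growing stage. Connexin 40 (Gja5) is known from arterial endothelium, connexin 45 (Gjc1) from smooth muscle, conduction tissue and many embryonic cells, connexin 26 (Gjb2) from epithelia, and pannexin 1 from channels that release ATP.

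In the GENCODE M21 annotation of GRCm38, the build named in the labels, Gja1 lies at chr10:56377330-56402513 on the plus strand and Gja4 at chr4:127311421-127314039 on the minus strand, and the coding sequence of each is in a single exon (1146 and 999 bases). Gja5 lies at chr3:96904693-97077416 (plus), Gjc1 at chr11:102799579-102819700 (minus), Gjb2 at chr14:57098600-57104702 (minus) and Panx1 at chr9:15002128-15045478 (minus). The 250 bases before the RefSeq start (GRCm38.p6) are shown for Gja1 and Gja4, the most abundant members. They are the window chr10:56377050-56377299 on the plus strand and the window chr4:127314040-127314289 on the minus strand. Capitals mark matches, on either strand, to the AP-1 letters TGANTCA or to the GC box GGGCGG, which do not overlap each other.
Gja1 promoter: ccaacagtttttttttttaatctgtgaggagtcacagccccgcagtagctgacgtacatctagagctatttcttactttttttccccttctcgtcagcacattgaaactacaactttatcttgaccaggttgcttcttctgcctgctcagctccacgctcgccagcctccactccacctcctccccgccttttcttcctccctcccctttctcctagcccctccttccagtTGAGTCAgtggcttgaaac
Gja4 promoter: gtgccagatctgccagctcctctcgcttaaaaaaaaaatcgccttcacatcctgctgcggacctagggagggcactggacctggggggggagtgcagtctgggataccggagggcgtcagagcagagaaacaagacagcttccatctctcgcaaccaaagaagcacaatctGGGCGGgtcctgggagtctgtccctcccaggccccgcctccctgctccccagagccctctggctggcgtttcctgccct
The Gja1 window held 1 match to TGANTCA, beginning at position -19 from the start, and none to GGGCGG. The Gja4 window held 1 match to GGGCGG, beginning at position -79, and none to TGANTCA. Among 32851 windows of this length, 6.75% held TGANTCA and 32.7% held GGGCGG, so the first match is the less common. These matches describe the letters only, and binding was not measured.

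The libraries held 33630642 to 39399282 fragments on genes. Cell markers differed between the diets, and in places between libraries of a group. The summed level of 6 erythroid genes was 3914 to 11214 FPKM in F1-Control and 780 to 1108 FPKM in F1-HHcy at Pd3, with 6 of 6 called lower in F1-HHcy at Pd3 and 5 of 5 tested at Pd7. At Pd3 the 8 theca and steroidogenic genes summed to 737 and 388 FPKM in F1-HHcy replicates 1 and 2 but to 101 FPKM in replicate 3. At Pd21 the 8 oviduct genes summed to 109 to 613 FPKM in F1-Control and 12.0 to 27.4 FPKM in F1-HHcy, with 5 of 7 tested called lower. The ovary itself was plain in its markers, with oocyte genes summing to 1002 to 2910 FPKM over the libraries. Since these are whole ovaries, fewer cells of a type and less RNA per cell cannot be told apart.

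Levels per gene length, in FPKM, fell into the same tiers in all 6 groups. Gja1 was the most abundant of the 6 genes and Gja4 the next, and the ranges of these genes over the 3 libraries did not overlap in any group. Panx1 and Gjc1 followed at 5.74 to 18.5 FPKM, with Panx1 higher on average in every group, although their ranges overlapped at Pd3 in both diets and at Pd7 in F1-HHcy. Gja5 and Gjb2 lay far below, between 0.0976 and 0.650 FPKM. The order of this last pair was not fixed, since Gjb2 was the higher on average in the F1-Control groups and in F1-HHcy at Pd21, with overlapping ranges, while Gja5 was the higher in all 3 F1-HHcy libraries at Pd3 and at Pd7.

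**Figure D1:**
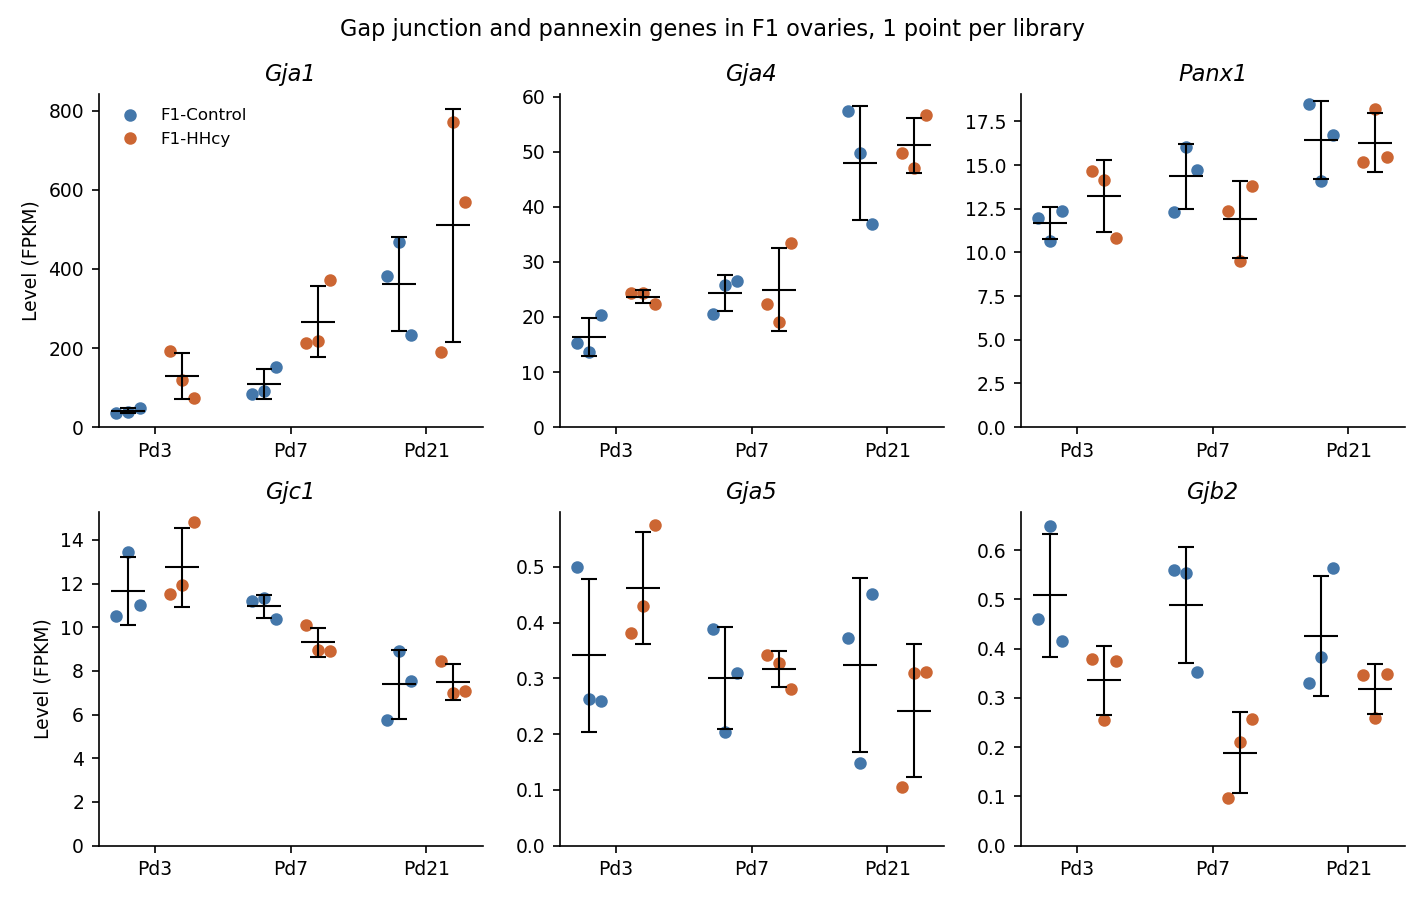
Level of each gene in FPKM (vertical axis, linear and starting at 0, with a scale of its own per gene) at Pd3, Pd7 and Pd21. Points are libraries (blue F1-Control, orange F1-HHcy, replicates 1 to 3 from left to right), and black lines give the mean and SD of 3 libraries. Gja1 libraries of F1-HHcy sit above those of F1-Control at Pd3 and Pd7 and overlap at Pd21, while Gjb2 libraries of F1-HHcy sit below at Pd3 and Pd7.

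Gja1, the connexin of the granulosa cells, was higher in F1-HHcy than in F1-Control on the first and the second of the sampled days. At Pd3 the F1-Control libraries gave 36.7, 38.9 and 49.2 FPKM, and the F1-HHcy libraries 192, 120 and 74.8 FPKM. The groups did not overlap, as for 11.8% of tested genes in that direction, and replicate 1 of F1-HHcy lay farthest above the control range. The means were 41.6 ± 6.7 and 129 ± 59 FPKM (SD, n = 3), a ratio of 3.10. The difference of log2(FPKM + 1), F1-HHcy minus F1-Control, was 1.52 ± 0.31 (SE; 95% interval 0.80 to 2.24), with an adjusted p of 0.0480 in limma over 13277 genes. Gja1 was thus called higher as 1 of the 4 members that passed the filter of 1 FPKM in 3 of 6 libraries, beside 3.07% of all tested genes called, 1.64% higher and 1.43% lower. The call is near its threshold. It was lost when F1-HHcy replicate 1 or 2 or F1-Control replicate 1, 2 or 3 was left out (difference 1.18, 1.52, 1.44, 1.48 and 1.64, adjusted p = 0.0666, 0.128, 0.213, 0.179 and 0.116 in limma), and it held without F1-HHcy replicate 3 (1.86, adjusted p = 0.00135). It was also lost with no filter on low values (adjusted p = 0.149 in limma) and with the replicate number as a block (0.133).

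At Pd7 the Gja1 level was 82.7, 90.4 and 152 FPKM in F1-Control and 212, 218 and 371 FPKM in F1-HHcy. Every F1-HHcy library again lay above every F1-Control library, as for 19.5% of tested genes, and replicate 3 was the highest of its group under both diets. The means were 108 ± 38 and 267 ± 90 FPKM (SD, n = 3), a ratio of 2.46. The log2 difference was 1.30 ± 0.28 (SE; 95% interval 0.67 to 1.92) with an adjusted p of 0.0185 in limma over 13299 genes, of which 5.88% were called higher and 5.98% lower. Of the 4 tested members, only Gja1 was called at this age. The call was lost without F1-HHcy replicate 3 (1.03, adjusted p = 0.0579), F1-Control replicate 1 (1.13, adjusted p = 0.0560) or F1-Control replicate 2 (1.19, adjusted p = 0.0769), and also with no filter (adjusted p = 0.108) or in the model of all 18 libraries (0.0612). When each library was rescaled to 1 common sum, the split of all calls at Pd7 went from 782 higher and 795 lower to 566 and 379, the median difference of all genes from -0.00 to 0.12, and the Gja1 difference to 1.43. By an unadjusted p below 0.05 with a log2 difference above 0.58, Gja1 was the only tested member to pass at Pd3 and Pd7, beside 5% of genes higher and 4.74% lower at Pd3 and 9.06% higher and 7.35% lower at Pd7.

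At Pd21 the Gja1 level was 382, 469 and 234 FPKM in F1-Control and 191, 772 and 568 FPKM in F1-HHcy. The groups overlapped, with the lowest and the highest of these libraries both in F1-HHcy. The log2 difference was 0.33 ± 0.50 (SE; 95% interval -0.80 to 1.47, adjusted p = 1.00 in limma), so a difference as large as at Pd7 lies within the interval. Leaving out F1-HHcy replicate 2 turned it to -0.075, and leaving out replicate 1 of the same group raised it to 0.93. No member was called at Pd21, whether p-values were adjusted or not, where 2.23% of 13350 genes were called, all of them lower in F1-HHcy, and where 0.0824% lay higher and 5.06% lower by the criterion of unadjusted p and size. None of the 6 genes separated the diets at Pd21, beside 1.92% of tested genes with all F1-HHcy libraries above and 8.61% with all below. The diet effects of Gja1 at the 3 ages were not shown to differ: the change of the effect was -0.22 ± 0.62 from Pd3 to Pd7, -1.19 ± 0.62 from Pd3 to Pd21 and -0.96 ± 0.62 from Pd7 to Pd21 (log2, SE, adjusted p = 0.894, 0.369 and 0.400 in limma over 14607 genes on 18 libraries).

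**Figure D2:**
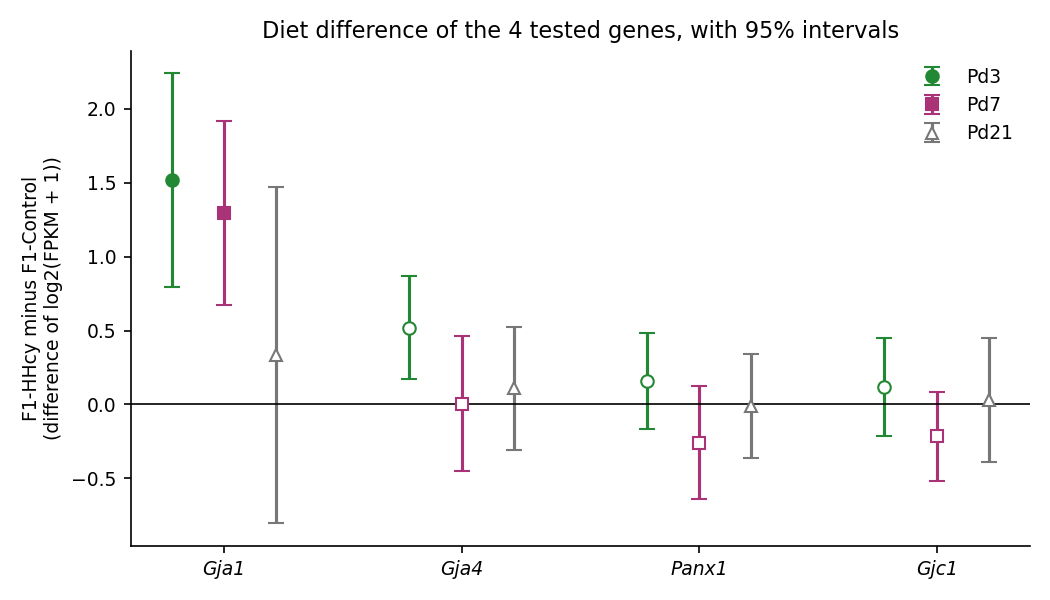
Difference between diets (F1-HHcy minus F1-Control, of log2(FPKM + 1), vertical axis) for the 4 members tested, at Pd3 (circles), Pd7 (squares) and Pd21 (triangles), with 95% intervals from limma. Filled symbols have an adjusted p below 0.05. They are Gja1 at Pd3 (1.52) and Pd7 (1.30), and the interval of Gja1 at Pd21 is the widest.

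Granulosa cell markers were divided beside Gja1, with some higher and some lower in F1-HHcy. At Pd3 the summed level of 13 granulosa markers was 457 to 523 FPKM in F1-Control and 711, 579 and 473 FPKM in F1-HHcy replicates 1, 2 and 3, the same order as for Gja1 in F1-HHcy but not in F1-Control. At Pd7 the sums were 476 to 747 and 683 to 1071 FPKM, with replicate 3 highest under both diets, and at Pd21 1175 to 1543 and 1191 to 1997 FPKM, with the libraries in the order of their Gja1 in F1-HHcy but not in F1-Control. No granulosa marker was at 0 in all libraries of a group, although 3 of the 13 lay below 1 FPKM in all F1-Control libraries at Pd3. By diet, 6 of 10 tested granulosa markers had a positive difference at Pd3 and 4 a negative one, with 2 called higher and none lower. At Pd7 the difference was positive for 9 of 13, with 3 called, and negative for 4, with 1 called. At Pd21 it was positive for 9 and negative for 4, and none was called.

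The granulosa markers called at Pd3 were Amh, the anti-Müllerian hormone of growing follicles (log2 difference 3.47, adjusted p = 0.0453 in limma), and Inha, the alpha subunit of inhibin (1.78, adjusted p = 0.0338). Among those with a negative difference at Pd3 were Gatm, which encodes an enzyme of creatine synthesis (means 199 and 125 FPKM, log2 difference -0.67, adjusted p = 0.0745), and Kitl, the ligand of the receptor Kit (60.2 and 40.9 FPKM, -0.55, adjusted p = 0.0642). Gatm was the marker called lower at Pd7 (126 and 63.1 FPKM, -0.997, adjusted p = 0.0128). These markers are named because of their values. Inha gave 34.2, 35.1 and 34.6 FPKM in F1-Control and 211, 106 and 79.9 FPKM in F1-HHcy at Pd3. At Pd7 it gave 70.2, 99.6 and 242 FPKM in F1-Control and 264, 267 and 448 FPKM in F1-HHcy. The diets did not overlap on either day, as for 11.8% of tested genes in that direction at Pd3 and 19.5% at Pd7. Replicate 3 of F1-Control came close to F1-HHcy at Pd7, where the log2 difference was 1.40 (adjusted p = 0.0497 in limma). Theca and steroidogenic markers moved as well, with 8 of 8 called higher at Pd7 (251 to 485 FPKM in F1-Control and 1194 to 1255 FPKM in F1-HHcy, summed). The part of these cell markers in the Gja1 difference was not tested.

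**Figure D3:**
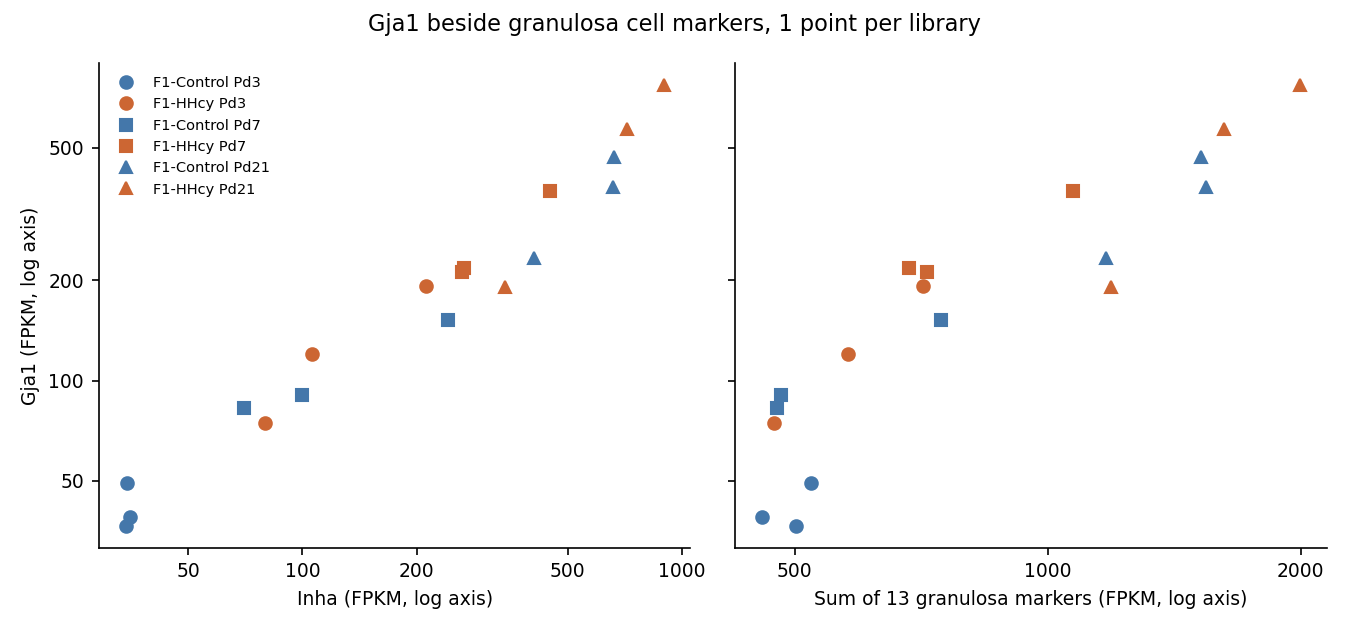
Gja1 (FPKM, vertical log axis) against Inha (left) and against the sum of 13 granulosa markers (right), both in FPKM on log axes, with 1 point per library; colour gives the diet and shape the day. Gja1 and Inha vary together over the 18 libraries (r = 0.982, and 0.907 for deviations from the group means). Inha is at place 2 of 14607 genes by likeness to Gja1, so it does not stand for all granulosa markers. The F1-HHcy points at Pd3 lie beside the F1-Control points at Pd7.

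Gja4, the connexin that joins oocyte and granulosa cells, differed less. At Pd3 it gave 15.3, 13.7 and 20.3 FPKM in F1-Control and 24.4, 24.4 and 22.4 FPKM in F1-HHcy. The groups did not overlap, with all F1-HHcy libraries above, as for Gja1 and for 11.8% of tested genes. The means were 16.4 ± 3.4 and 23.7 ± 1.2 FPKM (SD, n = 3), a ratio of 1.44. The log2 difference of 0.52 ± 0.15 (SE; 95% interval 0.17 to 0.87) did not pass the threshold (adjusted p = 0.104 in limma), and passed it only without F1-HHcy replicate 3 (0.56, adjusted p = 0.0408).

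At Pd7 the diets gave nearly the same Gja4 level, 20.6, 25.9 and 26.5 FPKM in F1-Control and 22.3, 19.1 and 33.5 FPKM in F1-HHcy (log2 difference 0.01, 95% interval -0.45 to 0.46, adjusted p = 0.986 in limma). At Pd21 it was 57.3, 49.7 and 36.8 FPKM in F1-Control and 49.7, 47.0 and 56.7 FPKM in F1-HHcy (0.11, 95% interval -0.31 to 0.53, adjusted p = 1.00). The groups overlapped on both days. The change of the Gja4 diet effect from Pd3 to Pd7 was -0.51 ± 0.28 (log2, SE, adjusted p = 0.410). Oocyte markers, summed over 14 genes, were at 1002 to 1276 FPKM in F1-Control and 1494 to 2201 FPKM in F1-HHcy at Pd3, and at 1860 to 2910 and 1185 to 1664 FPKM at Pd7. No oocyte marker was at 0 in all libraries of a group. The list was divided at Pd3, with 7 of 14 differences positive, 2 of them called, and 7 negative, none of them called. Zp2 and Zp3, which encode proteins of the egg coat, made up much of the sum (means of 250 and 170 FPKM in F1-Control and 553 and 377 FPKM in F1-HHcy), while Sohlh1, a transcription factor of early oocytes, had means of 92.9 and 43.1 FPKM. At Pd7, 2 of the 14 were called higher and 8 lower, and Gja4 was not called. Their part in the Gja4 values was not tested.

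The balance between the connexins of the follicle was described per group, without a test. Gja1 per Gja4, as a ratio of FPKM within a library, was 2.39, 2.84 and 2.42 in F1-Control and 7.87, 4.94 and 3.35 in F1-HHcy at Pd3, and 4.01, 3.49 and 5.76 against 9.51, 11.4 and 11.1 at Pd7. The groups did not overlap on either day. At Pd21 the ratio was 6.66, 9.43 and 6.35 in F1-Control and 3.84, 16.4 and 10.03 in F1-HHcy, and the groups overlapped. Of the summed FPKM of the 6 genes, Gja1 made up 50.4 ± 2.0% in F1-Control at Pd3 and 69.8 ± 9.2% in F1-HHcy (SD, n = 3). At Pd7 the shares were 67.3 ± 6.3% in F1-Control and 84.8 ± 2.2% in F1-HHcy. At Pd21 they overlapped, at 82.6 ± 3.7% and 83.7 ± 10.2%. These ratios and shares largely restate the Gja1 levels above and received no test. Gja1 by itself separated the diets at Pd3 and Pd7, as did 11.8% and 19.5% of tested genes in that direction. For the ratio no such share over all genes was computed.

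**Figure D4:**
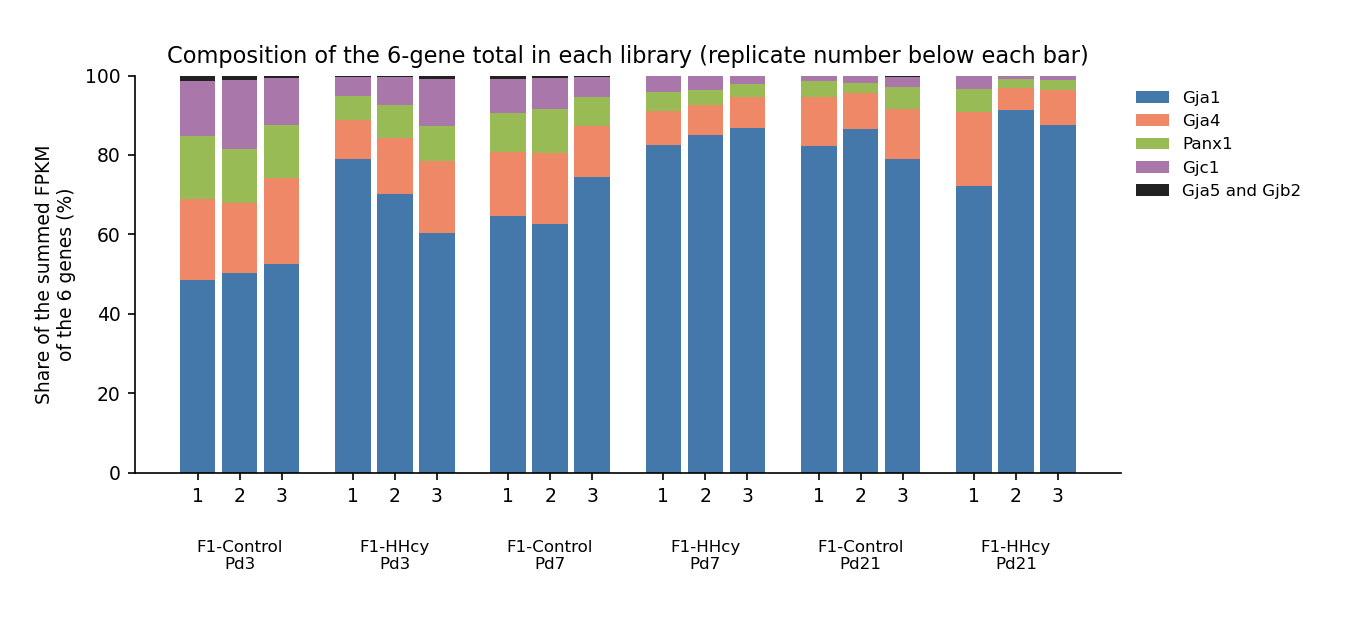
Share of each gene in the summed FPKM of the 6 genes (vertical axis, percent) in each of the 18 libraries, grouped by diet and day. Gja1 takes 48.6% to 52.6% in the F1-Control libraries at Pd3, 60.4% to 78.9% in F1-HHcy at Pd3 and 82.4% to 86.7% in F1-HHcy at Pd7; Gja5 and Gjb2 together are barely visible.

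Panx1, the ATP-releasing channel, showed the narrowest range of the 6 genes, with the highest group mean 1.41 times the lowest. At Pd3 it gave 12.0, 10.6 and 12.4 FPKM in F1-Control and 14.7, 14.2 and 10.8 FPKM in F1-HHcy, and at Pd7 12.3, 16.03 and 14.7 against 12.4, 9.49 and 13.8 FPKM. At Pd21 the levels were 18.5, 14.1 and 16.7 against 15.2, 18.2 and 15.4 FPKM. The diets overlapped at every age, and the log2 differences were 0.16 (95% interval -0.17 to 0.48), -0.26 (-0.64 to 0.12) and -0.01 (-0.36 to 0.34), with adjusted p = 0.540, 0.321 and 1.00 in limma.

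Gjc1, the connexin of smooth muscle and conducting tissue, had its lowest group means at Pd21. It gave 10.5, 13.4 and 11.03 FPKM in F1-Control and 11.5, 11.9 and 14.8 FPKM in F1-HHcy at Pd3, and 5.74, 8.91 and 7.52 against 8.46, 6.99 and 7.07 FPKM at Pd21, with overlapping diets on both days. At Pd7 the F1-Control libraries gave 11.2, 11.3 and 10.4 FPKM and the F1-HHcy libraries 10.1, 8.95 and 8.90 FPKM. Here all F1-HHcy libraries lay below, as for 19.5% of tested genes in that direction, with a log2 difference of -0.22 ± 0.13 (SE; 95% interval -0.52 to 0.08) that did not pass the threshold (adjusted p = 0.294 in limma). The log2 difference was 0.12 (95% interval -0.21 to 0.45) at Pd3 and 0.03 (-0.39 to 0.45) at Pd21 (adjusted p = 0.663 and 1.00). Smooth muscle and pericyte markers, 8 genes with none at 0, summed to 109 to 154 FPKM in F1-Control and 85.8 to 400 FPKM in F1-HHcy at Pd3, and to 357 to 619 and 510 to 632 FPKM at Pd7, and their part in Gjc1 was not tested.

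Gjb2, the epithelial connexin 26, rested on few fragments, 8 to 56 per library, and was lower on average in F1-HHcy on each day. At Pd7 it gave 0.559, 0.553 and 0.352 FPKM in F1-Control (48, 47 and 31 fragments) and 0.0976, 0.210 and 0.258 FPKM in F1-HHcy (8, 17 and 23 fragments). The groups did not overlap, as for 19.5% of tested genes in that direction, and the ratio of the means was 0.386. At Pd3 the values were 0.461, 0.650 and 0.415 FPKM against 0.379, 0.255 and 0.374 FPKM, again without overlap (ratio 0.661), as for 16.1% of tested genes in that direction. At Pd21 they were 0.331, 0.383 and 0.564 against 0.346, 0.259 and 0.348 FPKM, and overlapped. Gjb2 did not pass the filter of 1 FPKM, so it is not itself among the tested genes of these shares. In a fit with limma-voom on the recovered fragments, chosen after the data were seen, with at least 10 fragments in 3 libraries, the log2 difference was -0.59 ± 0.44 at Pd3, -1.41 ± 0.53 at Pd7 and -0.40 ± 0.47 at Pd21 (SE, adjusted p = 0.476, 0.1099 and 0.999 over 18043, 18119 and 18134 genes).

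Summed epithelial markers lay lower in F1-HHcy at Pd7, as Gjb2 did. The surface epithelium sums overlapped at Pd3, where Gjb2 did not, and lay apart at Pd21, where Gjb2 overlapped. The 8 surface epithelium markers summed to 527 to 891 FPKM in F1-Control and 232 to 438 FPKM in F1-HHcy at Pd7, where 6 of 8 were called lower, and to 660 to 736 and 463 to 776 FPKM at Pd3 and 403 to 533 and 135 to 270 FPKM at Pd21. None of the 8 was at 0 in all libraries of a group. The 8 oviduct markers, also with none at 0, summed to 34.2 to 57.1 and 15.7 to 31.2 FPKM at Pd7. Their part in the Gjb2 values was not tested.

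Gja5, the arterial connexin 40, was counted with 12 to 63 fragments per library. It gave 0.5001, 0.263 and 0.260 FPKM in F1-Control and 0.382, 0.430 and 0.575 FPKM in F1-HHcy at Pd3, and 0.388, 0.205 and 0.309 against 0.341, 0.327 and 0.280 FPKM at Pd7. At Pd21 it gave 0.372, 0.149 and 0.451 against 0.105, 0.310 and 0.311 FPKM. The diets overlapped at each age, and the limma-voom fit gave log2 differences of 0.48 ± 0.44, 0.11 ± 0.43 and -0.42 ± 0.64 (SE, adjusted p = 0.567, 0.887 and 0.999). Arterial markers, 8 genes with none at 0, varied little in their sum, from 29.0 to 43.8 FPKM over all 18 libraries. Of 7 tested, 6 had a positive diet difference at Pd3, 3 at Pd7 and 2 at Pd21. At Pd7, 1 was called lower, beside 5.98% of all tested genes, and no other was called by diet. The 10 general endothelial genes summed to 70.1 to 92.8 FPKM in F1-Control and 107 to 160 FPKM in F1-HHcy at Pd3. The part of these markers in the Gja5 values was not tested. At this depth 3 fragments on Gja5 correspond to at most 0.0281 FPKM, so the gene was detected in every library. This limit covers counting error only. No difference between the diets was detected, and the part of depth and of the spread between libraries in that was not tested.

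Between Pd3 and Pd7, both in batch 1, Gja1 rose in F1-Control from 41.6 ± 6.7 to 108 ± 38 FPKM. The log2 difference was 1.32 ± 0.23 (SE; 95% interval 0.81 to 1.83, adjusted p = 0.00739 in limma over 13336 genes), and Gja1 was the only one of 4 tested members called, beside 6.9% of genes called higher and 7.59% lower. The call held without each of the 6 libraries in turn (1.05 to 1.49), and was lost with no filter on low values (adjusted p = 0.0528) and in the model of all 18 libraries (adjusted p = 0.0575). Gja4 differed by 0.55 ± 0.17 in F1-Control (95% interval 0.17 to 0.93, adjusted p = 0.0602), and passed the threshold with the replicate number as a block (adjusted p = 0.0229), without F1-Control replicate 3 of Pd3 (0.70, adjusted p = 0.0423) and without F1-Control replicate 1 of Pd7 (0.66, adjusted p = 0.0384). Both Gja1 and Gja4 separated Pd7 from Pd3 in F1-Control without overlap, as did 15.6% of tested genes in that direction, but for Gja4 by a small gap (20.3 and 20.6 FPKM). The same-numbered F1-Control libraries of Pd3 and Pd7 deviated together weakly. Because the labels do not say what a number marks, the blocked value is given only as an alternative. Gjc1 (-0.08) and Panx1 (0.27) were not called (adjusted p = 0.738 and 0.215).

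In F1-HHcy the same step gave 1.10 ± 0.36 for Gja1 (log2, SE; 95% interval 0.25 to 1.94, adjusted p = 0.146), 0.03 for Gja4, -0.41 ± 0.13 for Gjc1 (95% interval -0.71 to -0.11, adjusted p = 0.138) and -0.15 for Panx1. None of the 4 members was called in limma, and neither was any other of 13257 genes (0%); limma-voom also called 0, while 23.5% of the genes and 2 of the members, Gja1 and Gjc1, had an unadjusted p below 0.05. Without F1-HHcy replicate 1 of Pd3, Gja1 was called (1.43, adjusted p = 0.0378). All 3 libraries of Gja1 at Pd7 (212 to 371 FPKM) lay above those at Pd3 (74.8 to 192 FPKM), as for 14.6% of tested genes. Gjc1 did not overlap either, since its 3 libraries at Pd7 (8.90 to 10.1 FPKM) all lay below those at Pd3 (11.5 to 14.8 FPKM), as for 16.1% of tested genes in that direction.

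Over all groups, Gja1 spanned the widest range, with the mean of F1-HHcy at Pd21 12.3 times that of F1-Control at Pd3. In the order of its group means, F1-HHcy at Pd3 (129 FPKM) stood next to F1-Control at Pd7 (108 FPKM), with overlapping libraries, and both lay apart from F1-HHcy at Pd7 (267 FPKM) and F1-Control at Pd3 (41.6 FPKM). Gja4 spanned 3.11-fold. Its lowest group was F1-Control at Pd3, which overlapped only with F1-HHcy at Pd7, and both Pd21 groups lay above every library of the earlier days. The means of Gjc1 ran the other way, 1.73-fold from Pd3 down to Pd21. For steps that involve Pd21, age and batch cannot be told apart, so these were not tested. The change of the diet effect between ages was not called for any of the 4 tested members. Of 14607 genes, 0.411% (Pd3 to Pd7), 4.59% (Pd3 to Pd21) and 3.89% (Pd7 to Pd21) were called. No member had an unadjusted p below 0.05 in limma, beside 13.8%, 16.1% and 19.4% of all genes in the same order. The nearest after Gja1 was Panx1 from Pd3 to Pd7 (-0.42 ± 0.22, adjusted p = 0.400 in limma).

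The members' patterns were compared over the 18 libraries as Pearson's r of log2(FPKM + 1), as a description, since libraries of a group share diet, age and batch. Gja1 and Gja4 varied together (r = 0.84 over 18 libraries, 0.75 in the 12 of batch 1, and 0.48 for deviations from the group means). Gjc1 ran against Gja1 (-0.78, -0.61 and -0.46) and against Gja4 (-0.80, -0.33 and -0.37), and Panx1 ran with Gja4 (0.78, 0.67 and 0.55). Among 14607 genes, those most like Gja1 were Apoa4, an apolipoprotein (r = 0.988), Inha (0.982) and Dynap, a dynactin-associated protein (0.981), and these 3 stayed at 0.907 to 0.946 in the deviations from the group means. Those most like Gja4 were Izumo1r, the egg's receptor for the sperm protein Izumo1 (0.974), Rhpn2 (0.964), and Siah2, a ubiquitin ligase (0.963). The best likeness was weaker for Gjc1, with Slc36a4, an amino acid transporter (0.941), Thbs2, a thrombospondin (0.929), and Hnrnpdl, an RNA-binding protein (0.928). For Panx1 the nearest were Hyal2, a hyaluronidase (0.912), Exosc3, a subunit of the RNA exosome (0.910), and Anp32a (0.899). Most of these places depended on the Pd21 libraries. By r in the 12 libraries of batch 1, the genes named for Gja1 stood at places 2, 8 and 42. Those named for Gja4 stood at places 26, 185 and 175. For Gjc1 the places were 13, 26 and 197, and for Panx1 68, 3 and 95.

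The other connexin and pannexin genes were scarce in these ovaries. Of 17 listed, 16 were in the tables, and 1 passed the filter at Pd3 and Pd7 and 3 at Pd21. None of those tested was called by diet at any age in limma, and none had an unadjusted p below 0.05. Gjb5, a connexin of skin and placenta, averaged 0.613 FPKM over the libraries, with group means from 0.233 FPKM in F1-HHcy at Pd7 to 1.03 FPKM in F1-Control at Pd7. The latter mean rests largely on replicate 2 (0.756, 2.19 and 0.144 FPKM). It overlapped with F1-HHcy at Pd7 (0.327, 0.262 and 0.111 FPKM). Gjb1, the connexin 32 of liver and nerve, averaged 0.492 FPKM, with its highest group means at Pd21 (1.03 FPKM in F1-Control and 1.13 FPKM in F1-HHcy).

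Genes whose products bind, anchor or modify connexins did not pass the test. Of 21 such genes, 19 were tested on each day, and none was called by diet or by age in limma or limma-voom, while 3, 5 and 1 of them had an unadjusted p below 0.05 by diet at Pd3, Pd7 and Pd21, beside 22.4%, 31.5% and 6.85% of all genes. Their median log2 diet difference was -0.06 at Pd3, -0.05 at Pd7 and -0.14 at Pd21, beside -0.03, -0.00 and -0.01 for all genes tested. The most abundant were Nedd4, a ubiquitin ligase that acts on connexin 43, Ctnnb1, beta-catenin, and Mapk3, the kinase ERK1. Nedd4 gave 155, 127 and 170 FPKM in F1-Control and 245, 231 and 216 FPKM in F1-HHcy at Pd3. The groups did not overlap, as for 11.8% of tested genes in that direction. The log2 difference of 0.62 ± 0.13 stayed just outside the threshold (adjusted p = 0.0557 in limma). Ctnnb1 (0.10, -0.17 and -0.04 at Pd3, Pd7 and Pd21) and Mapk3 (0.08, -0.16 and -0.14) differed little between the diets. Prkcd, a protein kinase C named because of its value, gave 0.63 ± 0.19 at Pd7 (adjusted p = 0.0554).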

How the data were processed

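RNA of F1 ovaries was sequenced by the authors from poly-A selected, stranded libraries of TRIzol-extracted RNA, 3 per diet and day. A table of 1 normalized value for each gene symbol was deposited per library, with no unit named. The value was read as FPKM, because 1 length per gene and 1 factor per library turned the FPKM that the authors deposited into whole fragments (within 0.02) for 99.989% of 27294 genes. The submitters' processing notes name FastQC 0.11.9, Trimmomatic 0.39, STAR 2.7.9a, featureCounts 2.0.1 and DESeq2 1.36.0 and the builds GRCm38 and mm10, and do not say how they relate to the deposited values. Reads shared by near-identical genes were treated in a way not given in the sources used here.

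Diets were compared per day, and Pd3 with Pd7 per diet, by limma (version 3.58.1, R 4.3.3) with a variance trend on log2(FPKM + 1), where a gene entered with 1 FPKM or more in at least 3 of 6 libraries. A gene was called at a Benjamini-Hochberg adjusted p below 0.05 over all genes tested. An unadjusted p below 0.05 with a log2 difference above 0.58 in size was run as an alternative. Differences of the diet effect between days were contrasts in 1 model of 18 libraries. With 3 against 3, an exact permutation test cannot go below 0.1, so none was used. The test was checked on simulated data. Tables and figures used Python 3.11.15, pandas 2.3.3, numpy 2.4.6 and matplotlib 3.10.9.

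Same-numbered libraries deviated together most, though weakly, from Pd3 to Pd7 in F1-Control (correlations 0.12, 0.24 and 0.26). The same step in F1-HHcy gave -0.02, 0.12 and 0.08. This is a hint from the data, since the labels do not say what a number marks. The rule for naming genes took all members, the called and the 3 most abundant genes of the 2 connexin lists, the 3 genes most like each tested member, and the 2 most abundant markers of a list; exceptions are stated, and some genes of the connexin lists are not reported here. Members, lists and tests were chosen with earlier results of these data known. Promoters came from RefSeq, where 5 of the 6 members matched (Gjc1 did not). No library was left out, and each was mapped to its group by its labels. Alternatives were a pseudocount of 0.1, no filter, the replicate block, median-ratio scaling, rescaling to 1000000, all 18 libraries in 1 model, limma-voom, and each library left out in turn.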

Additional observations from a re-analysis of the deposited data

How the results depend on the processing

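Over 48 member comparisons and 510 alternatives, 461 kept the direction and the side of the threshold or moved by less than the spread. Gja1 stayed higher in F1-HHcy at Pd3 and Pd7 under every alternative, but its adjusted p crossed 0.05 in several: at Pd3 (1.52) with no filter on low values (0.149) and with the replicate block (0.133), and at Pd7 (1.30) with no filter (0.108) and in the model of all 18 libraries (0.0612). Leaving out 1 library gave 1.18 to 1.86 at Pd3 and 1.03 to 1.57 at Pd7. From Pd3 to Pd7 in F1-Control, the Gja1 rise (1.32) was not called with no filter (adjusted p = 0.0528) or in the model of 18 libraries (0.0575), and Gja4 was called with the replicate block (0.55, adjusted p = 0.0229) and with median-ratio scaling (0.62, 0.0447). The cause was not tested for any of these changes. The block changed no other member's call. It pairs numbers that, in the diet comparisons, did not deviate together: at Pd3 it left 1 gene called in place of 408. Leaving out 1 library gave 0.40 to 0.67 for the Gja4 diet difference at Pd3, 0.43 to 0.70 for its age difference in F1-Control, and 0.76 to 1.43 for Gja1 with age in F1-HHcy.

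Directions of differences that were not called turned in some alternatives. With median-ratio scaling Gja4 at Pd7 was -0.0016 and Panx1 at Pd21 0.031. Leaving out 1 library gave -0.22 to 0.17 for Gja4 at Pd7, and at Pd21 -0.075 to 0.93 for Gja1, -0.065 to 0.25 for Gja4, -0.12 to 0.16 for Gjc1 and -0.11 to 0.073 for Panx1. With age it gave -0.14 to 0.024 for Gjc1 in F1-Control and -0.19 to 0.20 for Gja4 in F1-HHcy. The change of the diet effect ran from -0.56 to 0.11 for Gja1 (Pd3 to Pd7), -0.23 to 0.044 for Gjc1 (Pd3 to Pd21) and -0.071 to 0.33 for Gja4 (Pd7 to Pd21). The limma-voom fit on fragments moved the low genes away from the compressed log2(FPKM + 1) scale: Gja5 to 0.48, 0.11 and -0.42 by diet at Pd3, Pd7 and Pd21 and -0.52 with age in F1-HHcy, and Gjb2 to -0.59, -1.41, -0.40 and -0.89.

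Among all genes, the diet calls (408, 1577 and 298 on the 3 days) became 0, 91 and 37 with no filter, 877, 1674 and 495 in the model of 18 libraries, 1293, 2183 and 686 by unadjusted p and size, and 446, 945 and 301 after rescaling. The limma-voom fit on fragments with the lower minimum called 472 at Pd21. From Pd3 to Pd7 in F1-Control, 1932 became 886 with no filter, and rescaling moved that median from -0.07 to -0.19; in F1-HHcy, 0 became 767 in the model of 18 libraries. The diet effect differed between Pd3 and Pd7 for 60 genes, 94 with median-ratio scaling and 28 with the block. Leaving out 1 library gave 0 to 2937 diet calls at Pd3, 626 to 1949 at Pd7 and 136 to 385 at Pd21, 615 to 2293 and 0 to 1230 age calls in F1-Control and F1-HHcy, and 10 to 265, 393 to 1266 and 362 to 1169 differing diet effects (Pd3 to Pd7, Pd3 to Pd21 and Pd7 to Pd21). Rescaled levels are higher for every gene (Gja1 in F1-HHcy at Pd21 1107 in place of 510 FPKM), with the same order of members. Gja5 and Gjb2 rested on few fragments, at most 63 in a library.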
